A study of Mus musculus with 12 samples.

Results

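The 39 cell cycle and DNA replication genes described here were chosen as a named list. They cover the proteins that license and copy DNA, the enzymes that supply nucleotides, the cyclins and cyclin-dependent kinases with their inhibitors, the transcription factors E2f1 and Foxm1, and proteins of mitosis. A gene was measured where the array table has a row (probe set) annotated with exactly 1 symbol equal to its name, and where a gene has several such rows the one with the highest mean over all arrays was taken. This gave 38 measured genes of 19938 that have a row of their own. Cdkn1a has no such row, because its probe set also carries the symbol of another gene.

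The arrays measured RNA of Min6 cells, an insulin-producing line derived from a mouse insulinoma, after 3 culture periods of 5 days. In the return condition (RC) the cells spent the second period without serum at 5% oxygen and the last one back in serum-containing medium at 20% oxygen. In the defined condition (DC) they spent the last 10 days without serum at 5% oxygen, in DMEM-F12 supplemented with apo-transferrin, progesterone, putrescine and selenite. In the classic condition (CC) they stayed in DMEM with 15% fetal calf serum and 2-mercaptoethanol at 20% oxygen throughout. All groups had the classic medium in the first period, and all media held Pen-Strep. Each group has 4 arrays, so 12 in all, of 1 cell line and, per the labels, of a single experiment, so a p-value here rests on how far these samples spread. Serum, base medium, oxygen and supplements changed together and cannot be told apart. Values are log2 expression, on which a difference of 1 is a doubling.

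Cells commit to division late in the first gap phase, when D-type cyclins with Cdk4 or Cdk6, and then E-type cyclins with Cdk2, inactivate the retinoblastoma protein and free E2F factors to switch on replication genes. Genes of mitosis are switched on later, through Foxm1, B-Myb and promoter elements known as CCAAT boxes and the cell cycle homology region. Adult beta cells divide rarely, and cyclin D2 is known in mouse as the D-type cyclin their expansion after birth depends on. Min6 is a tumour line that divides in culture, and whether these steps run the same way in it was not tested.

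The promoters of the genes that moved are shown first, since the members' start regions hold letters of these elements more often than promoters at large. RefSeq windows (GRCm38.p6) of 300 bases, from 250 before the start to 50 from it, were found for 30 of the 38 genes, and 4 of the 6 genes that passed a test below have one. Each is printed 5′ to 3′ on the gene's strand. Capitals mark E2F letters (TTCCCGC, its variant TTCGCGC, the form TTGCCGC, or else TTGGCGC), cell cycle homology region letters (TTTGAA, or in its other form TTCGAA) and the box CCAAT, searched on both strands with overlapping matches counted.
Rrm2: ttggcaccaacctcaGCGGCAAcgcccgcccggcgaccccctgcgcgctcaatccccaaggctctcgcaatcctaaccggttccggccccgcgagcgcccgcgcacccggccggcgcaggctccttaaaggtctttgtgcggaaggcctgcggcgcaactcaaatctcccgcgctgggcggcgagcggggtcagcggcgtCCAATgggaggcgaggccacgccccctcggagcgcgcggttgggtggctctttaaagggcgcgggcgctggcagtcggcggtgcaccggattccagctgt
Tyms: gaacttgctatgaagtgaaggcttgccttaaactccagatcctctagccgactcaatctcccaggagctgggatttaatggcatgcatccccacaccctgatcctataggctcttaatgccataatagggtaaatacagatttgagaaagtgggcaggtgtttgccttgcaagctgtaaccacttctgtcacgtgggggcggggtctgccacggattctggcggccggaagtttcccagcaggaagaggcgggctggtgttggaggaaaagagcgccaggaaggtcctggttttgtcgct
Ccne1: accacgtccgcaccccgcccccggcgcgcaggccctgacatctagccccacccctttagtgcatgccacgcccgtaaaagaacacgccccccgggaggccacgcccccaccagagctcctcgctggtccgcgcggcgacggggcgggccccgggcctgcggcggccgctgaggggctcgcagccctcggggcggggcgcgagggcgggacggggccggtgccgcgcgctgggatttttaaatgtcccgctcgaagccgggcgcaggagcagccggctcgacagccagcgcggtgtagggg
Cdk1: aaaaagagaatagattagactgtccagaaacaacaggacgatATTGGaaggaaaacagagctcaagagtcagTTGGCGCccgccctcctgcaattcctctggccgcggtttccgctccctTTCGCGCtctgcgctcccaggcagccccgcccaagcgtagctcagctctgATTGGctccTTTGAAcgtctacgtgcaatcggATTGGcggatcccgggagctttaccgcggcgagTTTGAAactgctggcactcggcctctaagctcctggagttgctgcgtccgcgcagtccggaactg

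The Rrm2 window (chr12:24708004-24708303, plus strand) holds 1 E2F match, far from the start, and 1 CCAAT. The Tyms window (chr5:30073576-30073875, minus strand) and the Ccne1 window (chr7:38107441-38107740, minus strand) hold none of these letters. The Cdk1 window (chr10:69352863-69353162, minus strand) holds all 3 kinds, with 2 E2F matches, 2 of the cell cycle homology region and 3 of CCAAT. Over the members, E2F letters are in 13 of 33 windows (39.4%), against 9.57% of all 32851 windows in the table and 12.1% of those of protein-coding genes. Cell cycle homology region letters are in 11 member windows (33.3%, against 19.2% and 17.6%) and CCAAT in 22 (66.7%, against 37.4% and 38.2%). All 11 windows with homology region letters also hold CCAAT, a pairing found in 7.11% of protein-coding windows.

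The letters differed by role. E2F letters are in 6 of the 7 licensing and initiation genes with a window, and homology region letters in 2 of them, Mcm2 and Mcm7. Of the 8 genes of mitosis and chromosomes with a window, 7 hold homology region letters together with CCAAT, all but Birc5, and 1 holds E2F letters, Mki67. Ccnb2 and Cdk1 hold homology region letters together with CCAAT too. The median GC content of the member windows is 58.7%, against 56.3% for protein-coding windows. A match is a description of the letters in a window and not evidence of a bound factor.

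**Figure D1:**
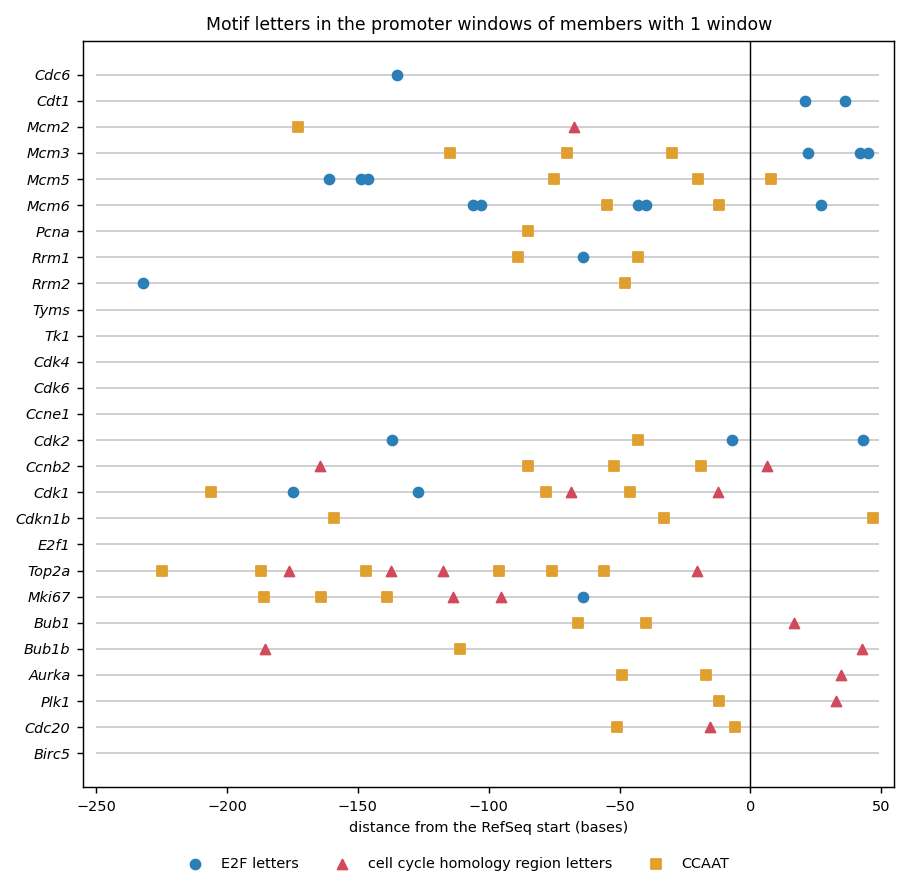
Positions of the searched letters in the RefSeq promoter windows of the 27 members with a single window. Each grey line is a window, the x axis is the distance in bases from the RefSeq start, circles are E2F letters, triangles cell cycle homology region letters and squares CCAAT. Triangles lie in the rows of Ccnb2, Cdk1, Mcm2 and the mitosis genes other than Birc5, and the rows with 3 or more circles are those of Mcm3, Mcm5, Mcm6 and Cdk2.

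The arrays had medians of 7.92 to 8.05 over all rows, and 36 of the 38 members had a mean above the median of all values, 7.99 (Ccnd1 and Cdk6 lay below it). Of 11 measured beta cell markers 10 had a mean above that median, with Ins2 at 13.02, 13.05 and 13.03 in RC, DC and CC, and 4 of 7 fibroblast, 0 of 4 endothelial and 2 of 5 immune markers did. The summed fibroblast signal was 10.58 to 11.01 in RC, 10.61 to 10.98 in DC and 10.52 to 10.77 in CC on the log2 scale. The summed immune signal was 10.51 to 10.58 in RC, 10.23 to 10.72 in DC and 10.28 to 10.45 in CC. Its RC range thus lay above its CC range, but no fibroblast or immune marker passed a test. Of the beta cell markers Nkx2-2 and Slc30a8 rose in DC against CC, by 0.29 and 0.31, and were lower in RC against DC (-0.34 and -0.45, limma adjusted p = 0.017 and 0.0092). Their part in the results was not tested. The CC arrays were not alike for these genes. In 32 of the 38 members both CC 1 and CC 2 read above both CC 3 and CC 4, which held for 26.8% of all rows and 43.3% of rows with a mean above the median. CC 1 and CC 2 also had wider interquartile ranges (2.73 and 2.75) than CC 3 and CC 4 (2.58 and 2.57). Taking each member's difference from its CC mean, the member median was -0.03, -0.07, -0.09 and -0.02 on RC 1 to RC 4 and -0.17, -0.37, -0.25 and -0.09 on DC 1 to DC 4. It was 0.12, 0.11, -0.12 and -0.12 on CC 1 to CC 4, so DC 4 lay above CC 3 and CC 4. DC 2 was the lowest DC array in 24 members and DC 4 the highest in 24, and these had the narrowest interquartile ranges in DC (2.47 and 2.44).

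**Figure D2:**
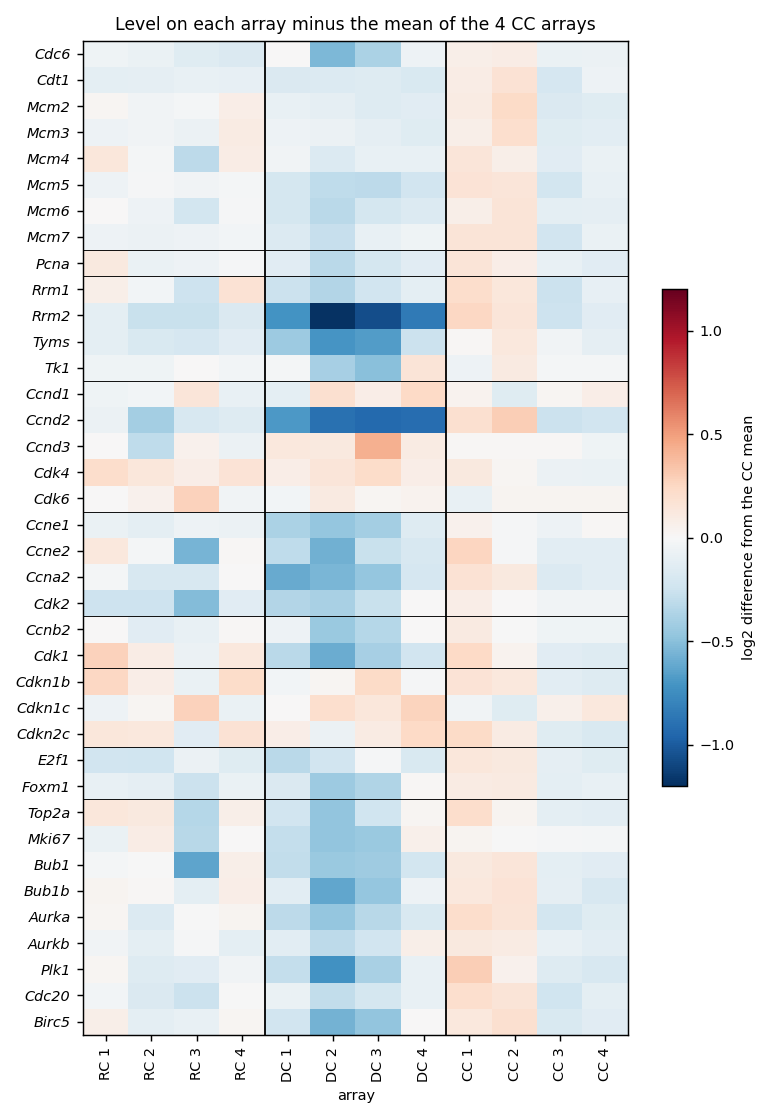
Level of each of the 38 measured members (rows, by role) on each of the 12 arrays (columns, RC, DC and CC) minus the mean of the 4 CC arrays, on the log2 scale from blue (lower) to red (higher). Rrm2 and Ccnd2 are the darkest blue on DC arrays, DC 2 is bluer than DC 4 in most rows, and CC 1 and CC 2 are redder than CC 3 and CC 4.

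DC was compared with CC to see how 10 days without serum at low oxygen changed these genes. Rrm2, Ccnd2, Tyms, Ccna2 and Ccne1 fell, 5 of 38 members (13.2%), and none rose. By the same test (limma, Benjamini-Hochberg adjusted p under 0.05) 4.32% of all 35556 rows fell and 2.31% rose, and 7.93% of rows with a mean above the median fell. At an unadjusted p under 0.05, 22 members were lower in DC, against 10.7% of all rows, and 0 higher, against 9.91%. With array weights 1, Cdk4, was called higher, where 5.18% of all rows were. The median difference over the members was -0.23 on the log2 scale, against 0.04 over all rows and -0.02 over rows above the median, and 31 members (81.6%) had a negative difference, against 39.7% of all rows and 53.9% of rows above the median. All 4 DC arrays lay below all 4 CC arrays in 9 members, where 7.96% of all rows and 13.1% of rows above the median did so, and above them in 1, Ccnd3, where 7.29% of all rows did. In whole cultures, a smaller share of dividing cells and less RNA per dividing cell cannot be told apart. The count depended on the arrays: 2 members (Rrm2 and Ccnd2) fell without CC 1 and CC 2, where 1.80% of all rows did, and 9 fell without DC 4, or without CC 3 and CC 4, where 3.43% and 3.12% of all rows did.

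RC was compared with DC to see how cells that had returned to serum and 20% oxygen differed from cells kept without serum. Rrm2, Ccnd2 and Cdk1 rose, 3 of 38 members (7.89%), and none fell. Over all rows 1.45% rose and 1.18% fell, and 2.48% of rows with a mean above the median rose. At an unadjusted p under 0.05, 12 members were higher in RC (6.78% of all rows) and 1, Ccnd3, was lower (5.03%). With array weights 2 were called lower, where 7.40% of all rows were. The median difference was 0.15, against -0.01 over all rows, and 33 members had a positive and 5 a negative one, where 54.8% of all rows were negative. All 4 RC arrays lay above all 4 DC arrays in 11 members, which held for 3.06% of all rows and 4.86% of rows above the median, and below them in 1, Ccnd3, where 3.23% of rows did. Only Rrm2 passed without RC 1 or without RC 4, where 0.787% and 0.824% of all rows rose. Without RC 3 or without DC 4, 6 members passed, all higher in RC, where 5.57% and 1.13% of all rows rose.

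RC was compared with CC to see how cells that had returned differed from cells kept in serum throughout. No array shows the RC cells before their return, so whether any member had fallen in them by then was not measured. By limma no member passed, where 0.796% of all rows did, and 2 members had an unadjusted p under 0.05, Cdk4 (higher in RC, as 3.42% of all rows were) and Cdk2 (lower in RC, as 5.63% were). With array weights 2 passed, Cdk4 and Cdkn1b, both higher in RC, where 4.15% of all rows were, so that count was near the share of all rows. The median difference was -0.06, against 0.03 over all rows, but 0.05 with array weights and 0.04 without CC 1 and CC 2. In the fit to all arrays 30 members had a negative one, against 38.4% of all rows and 52.4% of rows above the median. All RC arrays lay below all CC arrays in 3 members, Tyms, Ccne1 and Cdk2, where 5.45% of all rows and 10.2% of rows above the median did, and above them in 0, where 2.49% of all rows did. Of the 31 members with a lower mean in DC than in CC, 27 had an RC mean between the other 2 and 3 an RC mean above both. These 31 were picked for a low DC mean, so RC means above DC are expected in part from that choice. The same count was not made over all rows. The DC arrays enter both of the first comparisons, and the CC arrays the first and the last, so these comparisons are not independent.

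**Figure D3:**
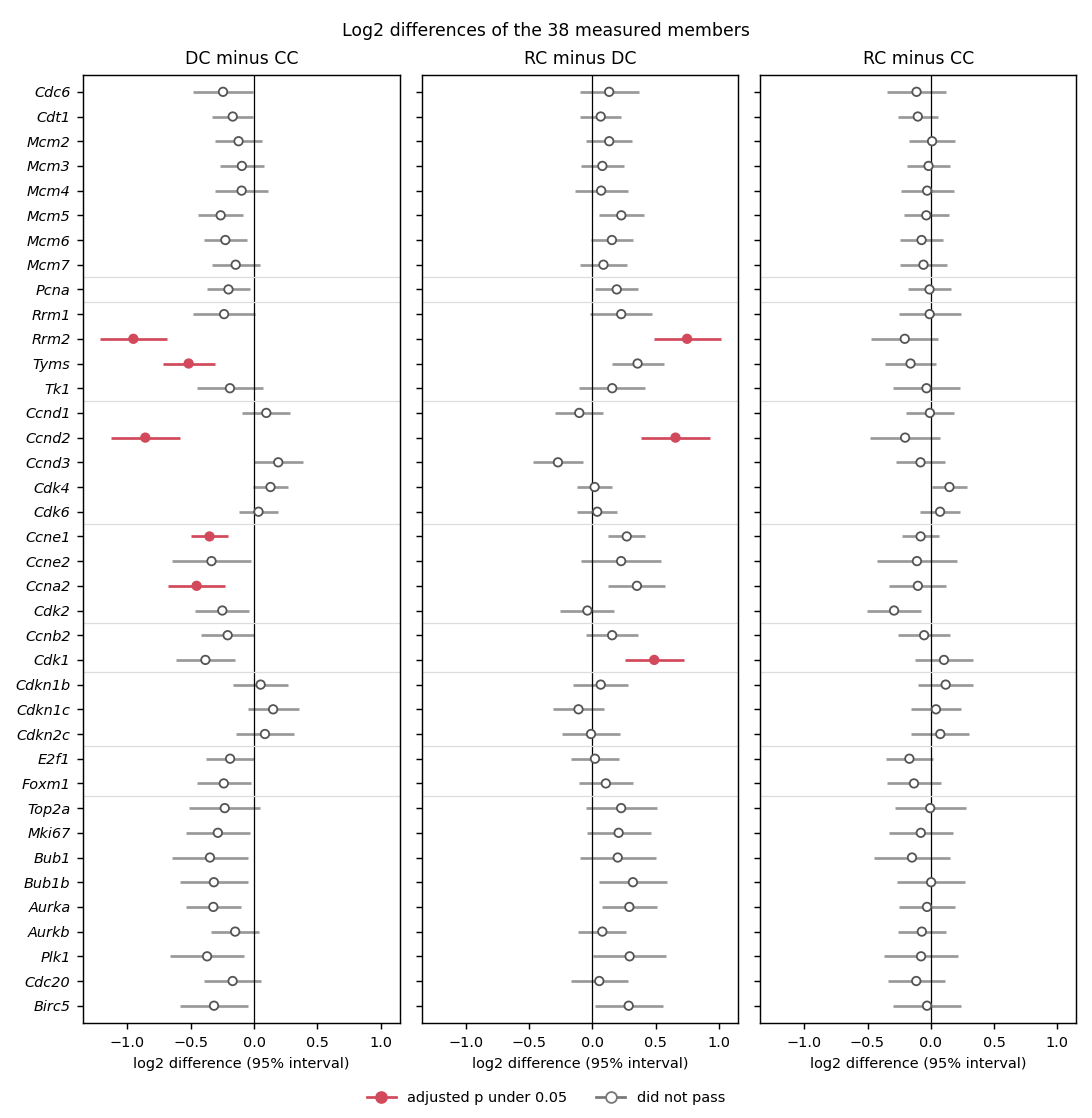
Log2 difference of each measured member (rows, by role) for DC minus CC, RC minus DC and RC minus CC, with limma's 95% intervals. Filled red points have an adjusted p under 0.05: 5 members to the left of 0 for DC minus CC, 3 to the right of 0 for RC minus DC and none for RC minus CC.

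Licensing and initiation genes load and fire the replicative helicase. Cdc6 and Cdt1 bring the Mcm2 to Mcm7 complex onto origins, and the Mcm proteins form the helicase itself. None of these 8 genes passed a test in DC against CC, with log2 differences of -0.26 to -0.10 and a median of -0.16, and none in RC against DC (0.07 to 0.23, median 0.11). Mcm5 had the smallest p of them, with 10.46, 10.51, 10.48 and 10.50 in RC, 10.31, 10.22, 10.21 and 10.29 in DC and 10.69, 10.66, 10.30 and 10.43 in CC. Its DC arrays were tightly grouped and lay below every RC array, while CC 3 fell within the DC range. The DC difference was -0.26 ± 0.08 (SE, n = 4 per group, limma adjusted p = 0.08). It passed under 3 of 23 alternatives, among them the omission of CC 3 (limma adjusted p = 0.02). Mcm6 had all DC arrays below the CC arrays (-0.23 ± 0.08, limma adjusted p = 0.12). Mcm2 averaged 10.91 ± 0.03 in DC and 11.03 ± 0.20 in CC (SD, n = 4 each), Mcm3 9.36 ± 0.04 in DC and 9.46 ± 0.17 in CC, and Mcm4 9.96 ± 0.05 in DC and 10.05 ± 0.13 in CC, each with an SD in CC above the size of the difference. Cdc6, Cdt1 and Mcm7 were at -0.25 ± 0.11, -0.17 ± 0.07 and -0.15 ± 0.09 in DC against CC, with overlapping arrays.

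Pcna, the sliding clamp that holds the DNA polymerase on its template, had 12.06, 11.86, 11.88 and 11.92 in RC, 11.80, 11.62, 11.73 and 11.80 in DC and 12.09, 12.02, 11.85 and 11.80 in CC. RC lay above DC in every array, and CC 4 overlapped DC. It did not pass in DC against CC (-0.20 ± 0.08, limma adjusted p = 0.17) or in RC against DC (0.19 ± 0.08, limma adjusted p = 0.33). A further Pcna row, annotated with the same transcripts, differed from it by at most 0.03 on any array, so the pair counts as a single measurement.

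Nucleotide supply held the largest change among the members. Rrm2 is the small subunit of ribonucleotide reductase, which makes deoxyribonucleotides and whose level rises as cells enter DNA synthesis. It read 10.30, 10.15, 10.15 and 10.24 in RC, 9.70, 9.23, 9.36 and 9.57 in DC and 10.66, 10.56, 10.16 and 10.28 in CC. DC stood clear below both other groups, and RC overlapped the 2 lower CC arrays. Rrm2 fell by 0.95 ± 0.12 in DC against CC (1.94-fold; SE, n = 4 per group; limma adjusted p = 0.00043) and rose by 0.75 ± 0.12 in RC against DC (1.68-fold; limma adjusted p = 0.005). Both calls held under every alternative run. RC against CC was at -0.21, with a 95% interval of -0.47 to 0.06. The large subunit gene Rrm1 averaged 11.23 ± 0.18, 11.00 ± 0.10 and 11.24 ± 0.22 in RC, DC and CC and did not pass (DC against CC -0.24 ± 0.11, limma adjusted p = 0.25).

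Tyms, thymidylate synthase, makes the thymidine nucleotide from the uridine one. It read 10.74, 10.68, 10.66 and 10.72 in RC, 10.43, 10.15, 10.20 and 10.61 in DC and 10.88, 10.99, 10.82 and 10.76 in CC. The 3 groups did not overlap, with RC between the others, and DC 1 and DC 4 lay nearest to RC. Tyms fell by 0.52 ± 0.09 in DC against CC (1.43-fold; limma adjusted p = 0.005), and the call was lost without CC 1 and CC 2 (limma adjusted p = 0.093). In RC against DC it was at 0.36 ± 0.09 (limma adjusted p = 0.077), and in RC against CC at -0.16 ± 0.09 (limma adjusted p = 0.69). Tk1, the thymidine kinase that salvages thymidine, averaged 9.99 ± 0.03 in RC, 9.84 ± 0.31 in DC and 10.03 ± 0.07 in CC and did not pass. Its DC arrays were the most spread, and DC 4 read above every CC array. A further Tk1 row was at -0.19 ± 0.10 in DC against CC and did not pass either (limma adjusted p = 0.28).

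Of the D-type cyclins and their kinases, which start the passage through the first gap phase, Ccnd2 alone passed. Cyclin D2 read 11.49, 11.15, 11.37 and 11.41 in RC, 10.86, 10.66, 10.62 and 10.64 in DC and 11.75, 11.85, 11.30 and 11.33 in CC. DC lay below every array of the other groups, RC overlapped CC 3 and CC 4, and CC 1 and CC 2 were the highest of all. Ccnd2 fell by 0.86 ± 0.13 in DC against CC (1.81-fold; limma adjusted p = 0.0012), a call held under every alternative run. It rose by 0.66 ± 0.13 in RC against DC (1.58-fold; limma adjusted p = 0.014), a call lost without RC 1 or without RC 4 (limma adjusted p up to 0.059). RC against CC was at -0.20, with a 95% interval of -0.48 to 0.07.

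Neither of the other D-type cyclins passed. Ccnd1 averaged 7.77 ± 0.10, 7.87 ± 0.16 and 7.78 ± 0.10 in RC, DC and CC, close to the median of all values, with a DC difference of 0.10 ± 0.09 (limma adjusted p = 0.49). Ccnd3 averaged 9.18 ± 0.16, 9.45 ± 0.16 and 9.26 ± 0.04, highest in DC where Ccnd2 was lowest, at 0.19 ± 0.09 in DC against CC (limma adjusted p = 0.25) and -0.27 ± 0.09 in RC against DC (limma adjusted p = 0.18). The 95% intervals of the DC difference, -0.09 to 0.28 for Ccnd1 and just under 0 to 0.39 for Ccnd3, lay wholly above that of Ccnd2, -1.13 to -0.59. Cdk4, the partner kinase, averaged 12.17 ± 0.06, 12.16 ± 0.07 and 12.03 ± 0.09, and Cdk6 7.58 ± 0.14, 7.54 ± 0.06 and 7.50 ± 0.06, and neither passed.

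Cyclins E and A drive entry into and passage through DNA synthesis together with Cdk2. Ccne1 read 10.57, 10.53, 10.59 and 10.58 in RC, 10.26, 10.18, 10.24 and 10.49 in DC and 10.70, 10.64, 10.59 and 10.66 in CC. DC lay below every array of the other groups, with DC 4 the nearest to them. Ccne1 fell by 0.35 ± 0.07 in DC against CC (1.28-fold; limma adjusted p = 0.0069), a call lost with quantile normalization (limma adjusted p = 0.069) and without CC 1 and CC 2. RC against DC was at 0.27 ± 0.07 (limma adjusted p = 0.058) and passed under 5 of 23 alternatives, among them the omission of DC 4 (limma adjusted p = 0.0067). Ccne2, the other E-type cyclin, averaged 9.69 ± 0.31, 9.47 ± 0.17 and 9.80 ± 0.18 in RC, DC and CC and did not pass (DC against CC -0.34 ± 0.14, limma adjusted p = 0.22).

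Ccna2, cyclin A2, read 11.37, 11.20, 11.20 and 11.40 in RC, 10.79, 10.85, 10.93 and 11.20 in DC and 11.57, 11.52, 11.23 and 11.27 in CC. DC lay below every array of the other groups, but DC 4 only just, and the other 3 DC arrays lay well below. Ccna2 fell by 0.45 ± 0.10 in DC against CC (1.37-fold; limma adjusted p = 0.019). The call was lost without CC 1, without CC 2 or without DC 2, and with the interquartile range of the arrays as a covariate (-0.40). Cdk2 averaged 9.30 ± 0.16 in RC, 9.34 ± 0.18 in DC and 9.59 ± 0.05 in CC. It was at -0.25 ± 0.10 in DC against CC and at -0.29 ± 0.10 in RC against CC and passed in neither (limma adjusted p = 0.18 and 0.29), although all RC arrays lay below all CC arrays.

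**Figure D4:**
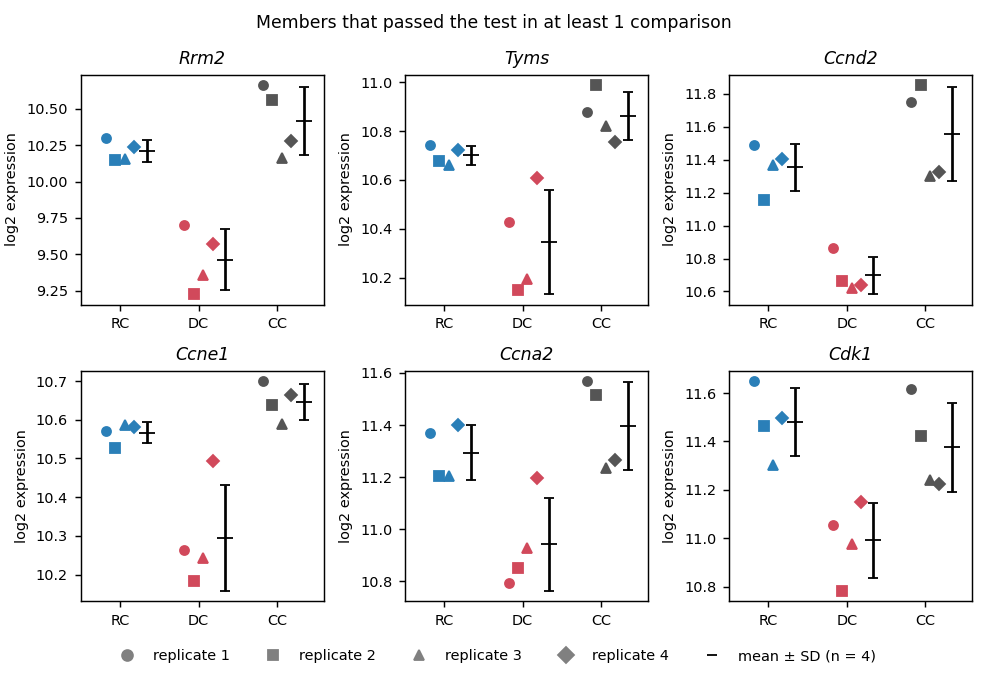
Log2 expression on each array of the 6 members that passed the test in at least 1 comparison, by culture condition (RC, DC and CC), with a marker for each replicate and the mean ± SD of 4 arrays beside them. DC lies lowest in all 6 panels, and DC 4 (diamond) is the highest DC array for Tyms, Ccne1, Ccna2 and Cdk1.

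Cdk1, the kinase of mitotic entry, passed in RC against DC. It read 11.65, 11.47, 11.30 and 11.50 in RC, 11.05, 10.78, 10.98 and 11.15 in DC and 11.62, 11.42, 11.24 and 11.22 in CC. DC lay below every array of the other groups, and RC and CC overlapped over most of their range. Cdk1 rose by 0.49 ± 0.11 in RC against DC (1.40-fold; limma adjusted p = 0.03), a call lost under 7 of 23 alternatives, among them the omission of DC 2, DC 3, RC 1, RC 2 or RC 4 (limma adjusted p up to 0.11 over all alternatives). It was at -0.38 ± 0.11 in DC against CC (limma adjusted p = 0.053), and 6 of 23 alternatives called that difference. Its partner Ccnb2, cyclin B2, averaged 11.48 ± 0.07, 11.32 ± 0.22 and 11.53 ± 0.08 in RC, DC and CC and did not pass.

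Inhibitors of cyclin-dependent kinases hold cells in the first gap phase. None of the 3 measured among the members passed in any comparison. Cdkn2a, an inhibitor locus of the further list below, did rise in DC against CC (0.29 ± 0.06, limma adjusted p = 0.0079). Cdkn1b averaged 11.57 ± 0.15, 11.50 ± 0.12 and 11.45 ± 0.16 in RC, DC and CC, and Cdkn2c, an inhibitor of Cdk4 and Cdk6, 11.26 ± 0.14, 11.27 ± 0.12 and 11.19 ± 0.20. Cdkn1c had the smallest p, with 8.05, 8.14, 8.39 and 8.03 in RC, 8.11, 8.31, 8.25 and 8.38 in DC and 8.07, 7.96, 8.17 and 8.24 in CC. The 3 groups overlapped, and its difference in DC against CC was 0.15 ± 0.09 (limma adjusted p = 0.35). The intervals of the DC difference ran from -0.16 to 0.27 for Cdkn1b and from -0.14 to 0.32 for Cdkn2c. A dimmer Cdkn1b row had a DC difference of the opposite sign (-0.07 ± 0.19, limma adjusted p = 0.83).

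Neither transcription factor passed. Foxm1, which drives genes of mitosis, read 10.06, 10.04, 9.90 and 10.08 in RC, 9.98, 9.72, 9.80 and 10.16 in DC and 10.25, 10.26, 10.03 and 10.06 in CC. DC 4 lay within the CC range and the other 3 DC arrays below it (DC against CC -0.24 ± 0.10, limma adjusted p = 0.20). E2f1, an activator of replication genes, averaged 10.26 ± 0.08, 10.24 ± 0.13 and 10.43 ± 0.15 in RC, DC and CC (DC against CC -0.19 ± 0.09, limma adjusted p = 0.24).

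The 9 genes of mitosis and chromosomes did not pass in any comparison, and all 9 had a negative difference in DC against CC (-0.37 to -0.15, median -0.32) and a positive one in RC against DC (0.05 to 0.32, median 0.23). Aurka, a spindle pole kinase, had the smallest p, with 10.08, 9.90, 10.05 and 10.09 in RC, 9.75, 9.60, 9.72 and 9.88 in DC and 10.27, 10.21, 9.84 and 9.91 in CC. RC lay above DC in every array by a narrow margin, while CC 3 read below DC 4. It was at -0.32 ± 0.10 in DC against CC (limma adjusted p = 0.088) and at 0.29 ± 0.10 in RC against DC (limma adjusted p = 0.22). Mki67, the proliferation marker known as Ki-67, averaged 12.08 ± 0.18, 11.87 ± 0.24 and 12.16 ± 0.03 in RC, DC and CC, at -0.29 ± 0.12 in DC against CC (limma adjusted p = 0.20). It passed under 2 of 23 alternatives, with array weights and with DC 4 left out (limma adjusted p = 0.028 without DC 4).

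Plk1 and Aurkb, kinases of mitotic progression, were at -0.37 ± 0.13 and -0.15 ± 0.09 in DC against CC. Bub1 and Bub1b, checkpoint proteins that hold back chromosome separation until the spindle is attached, were at -0.35 ± 0.14 and -0.32 ± 0.12. All 4 DC arrays of Bub1 lay below all 4 CC arrays, and RC 3 read lowest of all 12 (9.45). Cdc20, the activator of the ligase that ends mitosis, was at -0.17 ± 0.10, and Birc5, survivin, a subunit of the Aurora B complex, at -0.32 ± 0.12. Top2a, the topoisomerase that untangles chromosomes, was at -0.23 ± 0.13 (limma adjusted p = 0.31), and a far dimmer Top2a row passed in DC against CC (-0.54 ± 0.14, limma adjusted p = 0.042).

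**Figure D5:**
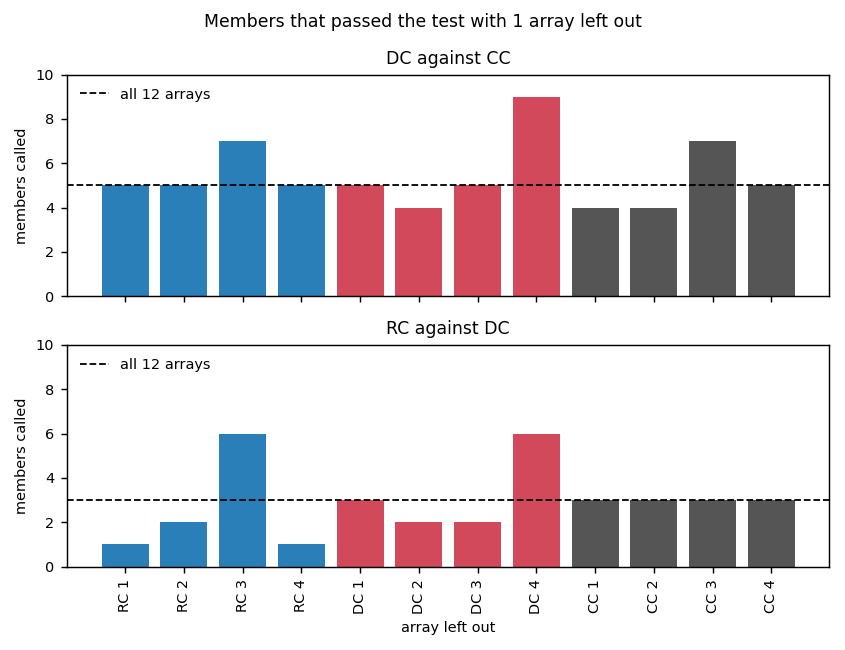
Number of the 38 members that passed the test (adjusted p under 0.05) in DC against CC and in RC against DC when the array named on the x axis was left out; bars are coloured by the condition of that array, and the dashed lines mark 5 and 3 with all 12 arrays. The counts run from 4 to 9 in DC against CC and from 1 to 6 in RC against DC, with the highest bars for DC 4 and, in RC against DC, also RC 3.

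A further list of 118 cell cycle genes, of which 116 have a row of their own, was read from the same fit. In DC against CC 14 fell (12.1%, against 4.32% of all rows and 7.93% of rows above the median). In the other direction 2 rose (1.72%, under the 2.31% of all rows and the 3.81% of rows above the median). The median difference was -0.24, against 0.04 over all rows and -0.02 over rows above the median. A negative difference was found in 104 (89.7%, against 39.7% of all rows and 53.9% of rows above the median). The smallest p belonged to Nuf2, a kinetochore protein, which averaged 9.65 ± 0.10 in RC, 9.23 ± 0.25 in DC and 10.00 ± 0.06 in CC and fell by 0.77 ± 0.11 in DC against CC (limma adjusted p = 7e-04). Ccnf, the cyclin of a ubiquitin ligase, fell by 0.67 ± 0.10, the primase subunit Prim1 by 0.66 ± 0.11, the clamp loader subunit Rfc4 by 0.52 ± 0.10 and the helicase cofactor Cdc45 by 0.43 ± 0.07. Ccng2, an unconventional cyclin associated with cell cycle exit, rose by 0.54 ± 0.08 (limma adjusted p = 0.0012). The other rise was that of Cdkn2a (0.29 ± 0.06, limma adjusted p = 0.0079), an inhibitor locus, named here after its value was seen.

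In RC against DC 1 of the 116 rose, Rfc4 (0.42 ± 0.10, limma adjusted p = 0.039), and 1 fell, Ccng2 (-0.44 ± 0.08, limma adjusted p = 0.0095), with a median of 0.15 and a negative difference in 17. Each is 0.862% of the list, under the 1.45% and 1.18% of all rows. Ccng2 averaged 7.83 ± 0.06 in RC, 8.26 ± 0.14 in DC and 7.73 ± 0.11 in CC, near the median of all values. In RC against CC none of the 116 passed by limma, where 0.796% of all rows did. At an unadjusted p under 0.05, 10 of the 116 were lower in RC and 0 higher. That held for 5.63% and 3.42% of all rows, and for 1819 and 657 of 17758 rows above the median. With array weights 8 of the list passed, 5 higher and 3 lower in RC, where 4.15% and 3.77% of all rows did. In DC against CC the calls ran from 9 without CC 1 or without DC 2 to 36 without RC 3, and 4 were left without CC 1 and CC 2. In RC against DC they ran from 1, under 8 omissions, to 24 without RC 3. All rows called also numbered more without RC 3, 3718 and 2892, against 2360 and 936 with all arrays. In DC against CC they numbered 1570 without CC 1, 1549 without DC 2 and 991 without CC 1 and CC 2. The promoter windows found for this list also number 116, but they belong to 96 genes. E2F letters are in 46 of these windows (39.7%, against 12.1% of protein-coding windows). Homology region letters are in 52 (44.8%, against 17.6%).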

How the data were processed

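The authors' deposited table holds log2 expression values of 35556 probe sets on 12 Affymetrix Mouse Gene 1.0 ST arrays (biotin-labelled cDNA, per the labels' protocols). The log2 scale was inferred from values between 3.69 and 14.5. The probe summary and normalization methods were not given in the sources used here. Precision is limited by the number of arrays. Group and replicate number come from the sample titles. Rows were named through the platform annotation (21789 rows with 1 symbol, 1621 with several, 12146 with none); all 38 members matched RefSeq (GRCm38.p6) by gene identifier, with 0 symbols changed.

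Limma 3.58.1 in R 4.3.3 fitted 1 mean per condition to all rows and arrays (9 residual degrees of freedom; two-sided; Benjamini-Hochberg over all rows per comparison; threshold 0.05), and was tested on simulated data. Errors of differences are moderated standard errors. The members and lists were chosen with earlier results of these data known. All measured members are named, in order of role; per-array values are given for called members and, in a role with none called, for the member with the smallest p. Of the further list, the 6 called genes of smallest p per comparison are named. The settings tried were quantile normalization, median centring, the interquartile range as a covariate, only the 2 groups compared, array weights, a filter on dim rows, the replicate block, the mean of a gene's rows, eBayes with trend and robust, and each array left out; the omission of CC 1 with CC 2, and of CC 3 with CC 4, was chosen after seeing the data. Promoter letters were searched with Python 3.11.15.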

Additional observations from a re-analysis of the deposited data

Results flagged for a closer look

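In each of the 114 sets of 4 arrays (38 members in 3 conditions), the gap between the highest or lowest array and its nearest neighbour was set against the range of the set. In 7 sets it exceeded the 95% critical value, and chance flags about 5% of sets. RC 3 was the low array in 3 of them. Bub1 read 9.45 on RC 3, against 10.06 to 10.15 on the other RC arrays (gap 0.859 of the range). Top2a read 10.83, against 11.24 to 11.31 (0.853), and Cdkn2c 11.05, against 11.31 to 11.36 (0.838). RC 3 also had the narrowest interquartile range of all arrays, 2.42; its part in these values was not tested. Mcm3 was high on RC 4 at 9.55, against 9.39 to 9.41 (0.841), and Ccnd3 high on DC 3 at 9.68, against 9.36 to 9.39 (0.905). In CC, Ccnd3 was low on CC 4 at 9.20 and Cdk6 low on CC 1 at 7.41; the other 3 arrays shared the same deposited value, 9.28 and 7.53, so the gap was 1 in both.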

How the results depend on the processing

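Rrm2 kept its call and direction under all 23 alternatives in both DC against CC and RC against DC, and Ccnd2 in DC against CC. No called member turned its sign. Of the 106 member results that did not pass, 28 passed under at least 1 alternative, none with the sign turned, and 44 turned their sign under at least 1. Members called in DC against CC numbered 5, against 9 with array weights (8 lower and 1 higher, beside 8.43% of all rows lower and 5.18% higher). They numbered 8 with the filter on dim rows (beside 9.86% of the rows left lower and 4.77% higher). Without CC 1 and CC 2 they numbered 2 (beside 1.80% of all rows lower and 0.99% higher), and without CC 3 and CC 4 9 (beside 3.12% and 1.29%). With single arrays left out they numbered 4 to 9. In RC against DC they numbered 3, against 20 with array weights (18 higher and 2 lower, beside 10.6% of all rows higher and 7.40% lower). They numbered 5 with the filter (beside 3.26% of the rows left higher and 2.67% lower), and 1 to 6 with single arrays left out. In RC against CC they numbered 0, with 2 by array weights (beside 4.15% of all rows higher and 3.77% lower) and 0 to 0 with single arrays left out. The member median was -0.11 in DC against CC without CC 1 and CC 2 and -0.18 in RC against CC without CC 3 and CC 4. With single arrays left out it ran from -0.28 to -0.17, from 0.10 to 0.21 in RC against DC and from -0.10 to -0.01 in RC against CC, where it was 0.05 with array weights and 0.04 without CC 1 and CC 2.

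In the further list, DC against CC gave 16 calls, against 40 with array weights, 30 with the filter and 4 without CC 1 and CC 2. With single arrays left out it gave 9 (without CC 1 or DC 2) to 36 (without RC 3). The share of rows called moved too. In the main fit 4.32% of all rows were lower and 2.31% higher. The shares were 8.43% and 5.18% with array weights, and 9.86% and 4.77% of the rows left with the filter. They were 1.80% and 0.99% without CC 1 and CC 2, and 6.68% and 3.77% without RC 3. RC against DC gave 2, against 5 with quantile normalization and with the filter, 7 with the interquartile range as a covariate, 53 with array weights, 1 with median centring, with only the 2 groups compared and without either CC pair, and 1 to 24 with single arrays left out. RC against CC gave 0 calls, against 8 with array weights, where 3.77% of all rows were lower and 4.15% higher. It gave 1 with median centring, the interquartile range, only the 2 groups compared or the filter, and 0 to 2 with single arrays left out. The filter tests fewer rows; the cause of the other shifts was not tested. Over all rows DC against CC gave 1537 lower and 823 higher, against 1698 and 502 with median centring and 1253 and 1203 when the interquartile range entered the fit.

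Same-numbered arrays of different conditions did not deviate together throughout (correlations -0.36 to 0.47, over 0.1 in 5 of 12 pairs, 2 of 12 best with their own number). These correlations gave no clear sign that the replicate numbers pair the arrays. With so few arrays per condition, they cannot exclude a pairing either. With the replicate block 6, 3 and 0 members passed in DC against CC, RC against DC and RC against CC, and 14, 2 and 0 of the further list. Of all rows 3.54%, 0.80% and 0.16% were lower there, and 1.67%, 1.14% and 0.028% higher. Detection calls were not used here, so no level could be set against its background.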
